A study of Homo sapiens with 6 samples.

Results

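The genes described here are 98 genes of HCT116 cells, an established human colorectal cancer line, with symbols of long noncoding RNAs. By symbol they are 82 LINC genes (for long intergenic noncoding RNA, a type not annotated for all of them), 13 SNHG genes (small nucleolar RNA host genes), and GAS5, MALAT1 and NEAT1. They were taken by symbol from 56638 gene rows. Of 632 rows with such a symbol, the 98 with at least 120 reads summed over all 6 libraries were kept, 247 had fewer reads and 287 had 0. Members were therefore chosen by total reads, a value that does not use the group labels. High reads in 1 group alone can still lift a gene past the threshold, as for LINC00589, LINC00960 and LINC00640 below. The totals are given below as a description only. RNA sequencing compared 3 Control libraries with 3 libraries labelled ZFP90_KO, made from cells edited with guide RNA against exon 3 of ZFP90, a zinc finger gene. Cells of both groups were at passage 16 to 19, grown in RPMI-1640 medium with no other agent named, and each library came from 1 µg of total RNA. The labels carry the same text on the guide for the Control and ZFP90_KO libraries, and they do not say whether the controls received a guide, whether the edited cells were 1 clone, or whether replicates were separate cultures, so the p-values describe spread among libraries that could differ for technical reasons alone.

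Long noncoding RNAs are transcribed and usually spliced like mRNAs but are not known mainly as templates for protein. SNHG genes and GAS5 carry small nucleolar RNAs (snoRNAs) in their introns: splicing frees the snoRNA, which guides the chemical modification of ribosomal RNA, while the spliced exons often engage ribosomes and are removed by nonsense-mediated decay. MALAT1 and NEAT1 stay in the nucleus, MALAT1 at nuclear speckles and NEAT1 as the scaffold of paraspeckles. Most LINC transcripts are scarce and vary strongly between cell types, and NORAD, listed here under its older symbol LINC00657, is an abundant exception that binds PUMILIO proteins in the cytoplasm.

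Each library held from 13424356 to 17012910 reads assigned to genes. ZFP90 RNA itself had 770, 720 and 577 reads in the controls and 1438, 1135 and 1372 in the libraries labelled ZFP90_KO, where it was higher (log2 fold change 0.90; edgeR quasi-likelihood test, adjusted p = 5.1e-05), so directions are given for the libraries as labelled. In Control replicate 2 the median gene level, relative to the other controls, was 87.7% for chromosome 6, 80.6% for 7, 75.2% for 8, 70.3% for 9 and 53.6% for X, and values without it are given where a member lies there. Of 10 epithelial and intestinal markers, EPCAM, KRT8, KRT18, KRT19, CDH1, CLDN4 and CDX2 were expressed, VIL1 and LGALS4 had 8 and 12 reads in all, and CDX1 had 0; 1 of the 7 tested, KRT18, fell by 0.23 on the log2 scale (adjusted p = 0.0394), a call lost with DESeq2, with the replicate block and without Control replicate 3 or ZFP90_KO replicate 2 or 3 (highest adjusted p = 0.132). Summed epithelial markers lay between 2923 and 3057 CPM. Summed leukocyte markers lay between 0.724 and 1.19 CPM (counts per TMM-scaled library size) and summed fibroblast and endothelial markers between 75.5 and 97.6 CPM, with overlapping ranges in both groups. Most of the latter sum was COL1A1, at 66.6 to 84.7 CPM, while PECAM1 had 0 reads and CDH5 2.

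The starts of the snoRNA hosts are shown first, because host genes are known for beginning in a run of C and T bases (a 5' terminal oligopyrimidine tract) that ties their RNA to the translation machinery. RefSeq (GRCh38.p14) held a promoter entry for 11 of the 14 hosts. Each line runs 5' to 3' from 40 bases before the annotated start through the first 50 transcribed bases, and capitals mark the unbroken run of C and T that begins at the start base; a line with no capitals has none.
SNHG1: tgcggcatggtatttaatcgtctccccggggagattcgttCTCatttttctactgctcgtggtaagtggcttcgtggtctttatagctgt
SNHG8: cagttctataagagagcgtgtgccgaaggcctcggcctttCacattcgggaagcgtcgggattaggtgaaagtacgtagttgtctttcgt
SNHG12: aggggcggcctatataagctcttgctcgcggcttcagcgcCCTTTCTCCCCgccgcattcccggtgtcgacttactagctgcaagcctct
SNHG16: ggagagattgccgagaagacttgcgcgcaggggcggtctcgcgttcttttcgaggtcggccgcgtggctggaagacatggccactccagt
SNHG5: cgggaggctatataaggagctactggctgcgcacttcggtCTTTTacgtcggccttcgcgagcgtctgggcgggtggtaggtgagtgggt
GAS5: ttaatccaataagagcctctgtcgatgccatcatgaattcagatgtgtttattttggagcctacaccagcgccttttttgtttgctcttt

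These windows are chr11:62855836-62855925 (minus strand) for SNHG1, chr4:118278722-118278811 (plus) for SNHG8, chr1:28581824-28581913 (minus) for SNHG12, chr17:76557724-76557813 (plus) for SNHG16, chr6:85678684-85678773 (minus) for SNHG5 and chr1:173868996-173869085 (minus) for GAS5. A C at the annotated start followed by 4 bases that are each C or T was found in 2 of the 11 host promoters, SNHG12 and SNHG5, and in 4.07% of all 35116 RefSeq promoter windows, read on the gene's strand only. SNHG12 rose and SNHG5 did not pass the test, as described next, so 1 of these hosts was called and the other was not. The count rests on the start base that RefSeq annotates, which can differ from the base used in these cells.

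Of the 98 members, 14 rose and 13 fell in ZFP90_KO relative to Control (edgeR quasi-likelihood test, adjusted p under 0.05 over all 16369 genes tested), where 9.73% of all genes tested were called higher, 11.4% lower and 21.1% in either direction. In bulk RNA, fewer cells expressing a gene and less RNA per cell cannot be told apart. The 27 called members are 27.6% of the 98. All 98 passed the filter on low counts. The median log2 fold change was -0.02 over the members and 0.01 over all genes tested. Calls were more frequent among members with many reads: 13 of 34 with 1000 or more reads were called, against 14 of 64 with fewer, where 25.4% and 16.8% of all genes tested in the same bands of reads were called. The smallest called difference was 0.18 in log2 in the first band and 0.52 in the second, and no smaller difference was called in the respective members. The groups did not overlap in CPM for 42 members, 20 higher and 22 lower, while 41.2% of all genes tested had groups that did not overlap (20.9% higher and 20.3% lower).

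**Figure D1:**
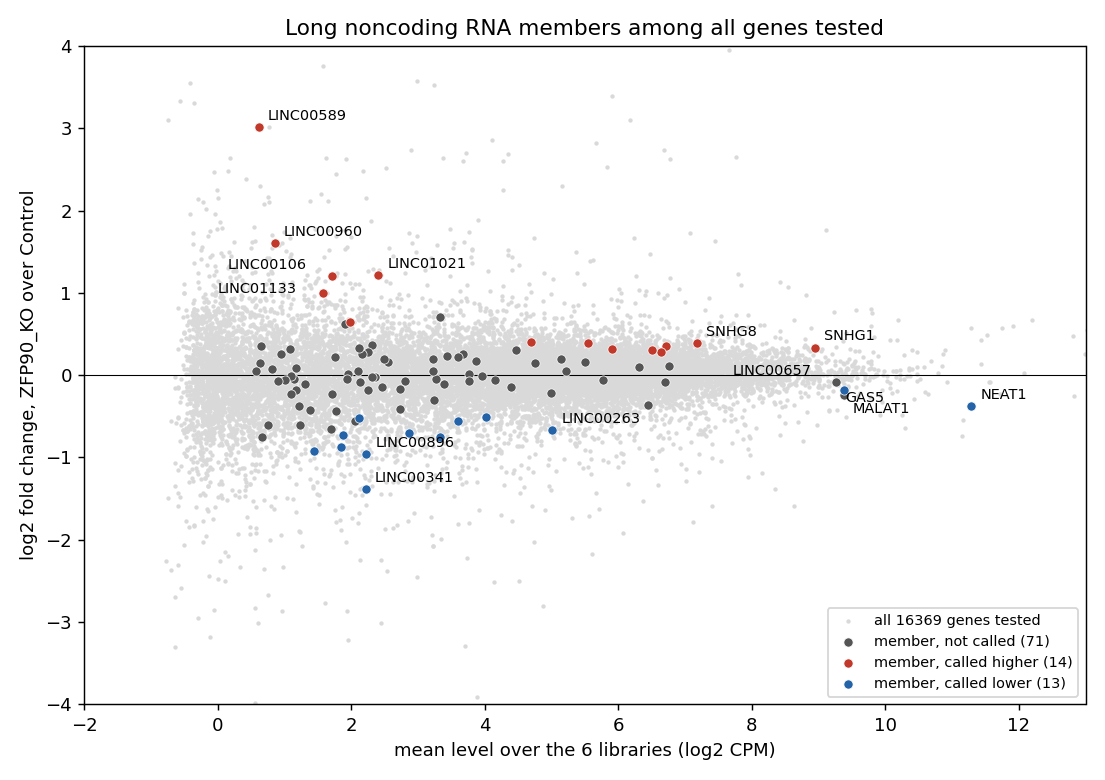
Mean level over the 6 libraries (horizontal axis, log2 CPM) against the log2 fold change of ZFP90_KO over Control (vertical axis) for all 16369 genes tested (light grey) and the 98 members (dark grey, not called; red, called higher; blue, called lower). The 5 members with the largest rises have low levels, and NEAT1, the member with the highest level, lies below 0; 8 genes beyond 4 in either direction fall outside the axis.

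The members' RNA was unevenly spread. They held between 0.585% and 0.745% of gene reads in each library, and 37.7% of the reads of all members belonged to NEAT1. The 5 members with the most reads, NEAT1, LINC00657, MALAT1, GAS5 and SNHG1, held 74.7%, whereas the median member had 489.5 reads over the 6 libraries. Per kilobase of annotated exon, with exon lengths from GENCODE 29, GAS5 ranked first among the 91 placed members in the controls at 174 CPM per kb. It was followed by SNHG8 at 136, LINC00657 at 133, NEAT1 at 124 and SNHG1 at 117 CPM per kb. The annotated exons of NEAT1 cover 22767 bases and those of SNHG8 923 bases.

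Among the 14 snoRNA hosts, 5 rose in the libraries labelled ZFP90_KO and 0 fell, where 9.73% of all genes tested were called higher. Among genes tested with 1000 or more reads, where calls were more frequent, 1251 of 9929 were called higher. The 5 were SNHG1, SNHG8, SNHG12, SNHG15 and SNHG16, with log2 fold changes between 0.29 and 0.39. The host median was 0.20 against 0.01 over all genes tested. At an unadjusted p under 0.05, 6 of the 14 hosts differed, all of them higher, where 35.0% of all genes tested differed and 17.1% were higher at that level. The 0 lower hosts became 1 only when Control replicate 2 was left out. The 5 calls were also made by DESeq2, by limma-voom and under each other scaling of the libraries.

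SNHG1, host to a cluster of box C/D snoRNAs on chromosome 11, measured 437, 456 and 423 CPM in Control replicates 1 to 3 and 557, 561 and 538 CPM in the libraries labelled ZFP90_KO. Every ZFP90_KO library lay above every control, and the means were 439 ± 17.0 and 552 ± 12.5 CPM (SD, n = 3). The log2 fold change was 0.33 (SE 0.0495, edgeR adjusted p = 0.00224). SNHG8, host of the H/ACA snoRNA SNORA24, measured 128, 129 and 120 CPM in the controls and 174, 167 and 153 CPM in ZFP90_KO. Its log2 fold change of 0.39 (SE 0.0605, adjusted p = 0.00271) is the largest among the hosts, and the groups did not overlap. SNHG12 carries SNORD99 and 3 H/ACA snoRNAs. It measured 88.1, 94.8 and 94.6 CPM in the controls and 118, 126 and 111 CPM in ZFP90_KO, so that all 3 ZFP90_KO libraries were above the highest control (log2 fold change 0.36, SE 0.0622, adjusted p = 0.00485).

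SNHG16, host of the SNORD1 family, had the tightest replicates of the 5, with 91.0, 87.5 and 89.9 CPM in the controls and 110, 107 and 110 CPM in ZFP90_KO. The log2 fold change was 0.29 (SE 0.0465, adjusted p = 0.00349), and the groups were apart. SNHG15, host of SNORA9 on chromosome 7, measured 53.5, 47.6 and 58.5 CPM in the controls and 69.1, 64.9 and 65.1 CPM in ZFP90_KO. The lowest control was replicate 2, which has a deficit on that chromosome. The log2 fold change was 0.32 (adjusted p = 0.0206) with all libraries and 0.25 (adjusted p = 0.00636) without Control replicate 2. The SNHG15 call was lost without Control replicate 1 or ZFP90_KO replicate 1 or 3, with adjusted p of up to 0.0893, whereas those of the other 4 held with each library left out in turn.

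**Figure D2:**
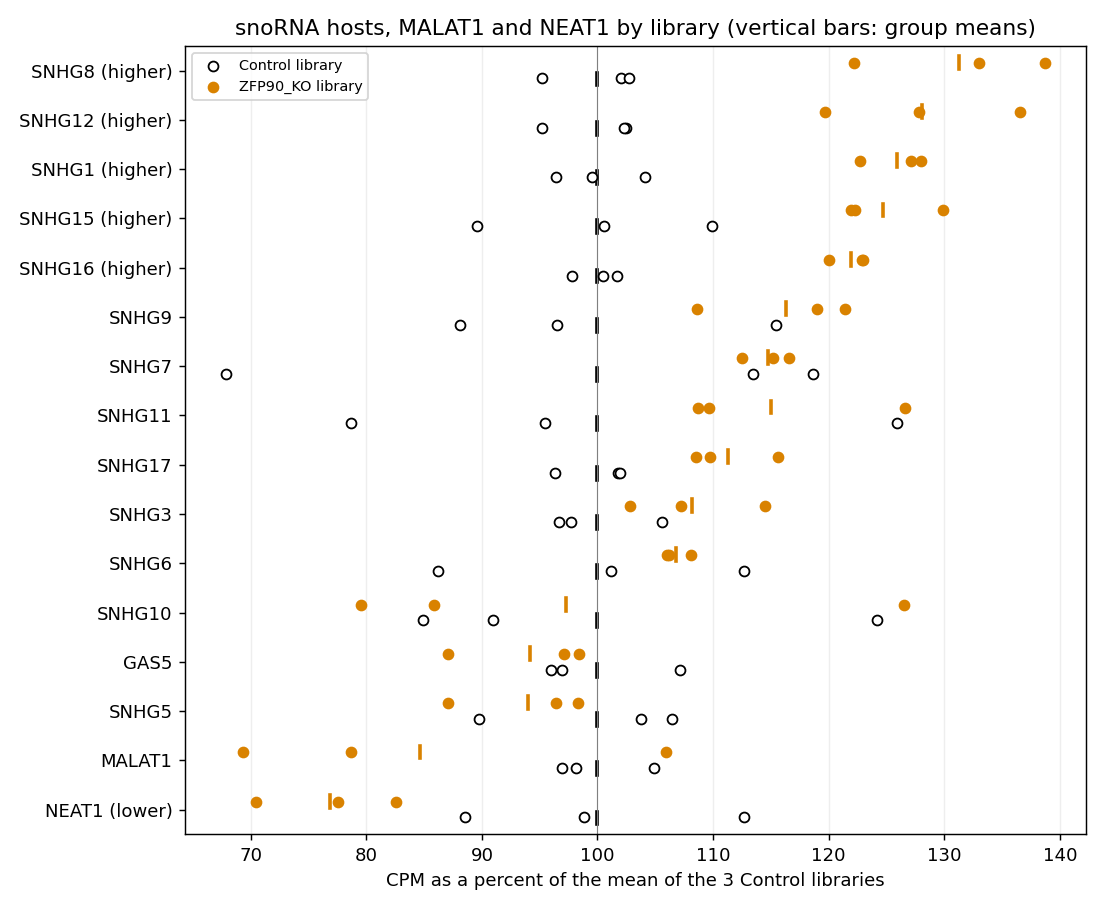
CPM of the 14 snoRNA hosts, MALAT1 and NEAT1 in each library as a percent of the Control mean (open circles, Control; filled orange circles, ZFP90_KO; short vertical bars, group means), ordered by log2 fold change within the hosts. The 5 called hosts have every filled circle to the right of every open one, and NEAT1 has every filled circle to the left.

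GAS5 is a growth-arrest transcript that hosts 10 box C/D snoRNAs and a H/ACA one. It measured 613, 678 and 607 CPM in the controls and 614, 622 and 551 CPM in ZFP90_KO. The ranges overlapped, and the log2 fold change of -0.09 had a 95% interval from -0.24 to 0.07 (edgeR adjusted p = 0.396). SNHG5, the other host at or below its control mean besides SNHG10, measured 114, 95.8 and 111 CPM in the controls and 105, 103 and 92.9 CPM in ZFP90_KO. The interval of its log2 difference ran from -0.26 to 0.08. It lies on chromosome 6, and without Control replicate 2 its log2 fold change was -0.16 (adjusted p = 0.0462).

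SNHG17 came closest to a call among the hosts that did not pass the test. It measured 41.4, 43.8 and 43.8 CPM in the controls and 49.7, 46.7 and 47.2 CPM in ZFP90_KO, with groups apart and an adjusted p of 0.0961. SNHG3, which shares its locus with RCC1, measured 104 ± 5.03 and 112 ± 6.12 CPM (SD, n = 3; adjusted p = 0.214, and 0.0481 without Control replicate 2). SNHG6 on chromosome 8 and SNHG7 on chromosome 9 had log2 fold changes of 0.09 and 0.20, and -0.00 and -0.01 without Control replicate 2. SNHG7 measured 37.4, 22.4 and 39.1 CPM in the controls against 37.1, 38.4 and 38.0 CPM in ZFP90_KO, so that only the control with the deficit stood low. SNHG9, SNHG10 and SNHG11 were scarce, with control means of 3.14, 3.87 and 8.73 CPM. The intervals of their log2 differences ran from -0.15 to 0.59, from -0.57 to 0.46 and from -0.18 to 0.58. SNHG11 had an adjusted p of 0.437, and of 0.0384 without Control replicate 2.

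The snoRNAs themselves were hardly sampled. RefSeq places 44 snoRNA genes inside 13 of the 14 hosts and 0 inside SNHG10. Of the 44, 25 had a row in the count tables with 1146 reads in total, and 10 of these rows had 0 reads, among them all 6 rows inside SNHG1. Only 6 rows passed the count filter, and 0 of them was called by edgeR, by DESeq2 or by limma-voom, or had an unadjusted p under 0.05. Of all 36 SNORD and SNORA rows tested, 1 was called higher and 0 lower by edgeR, beside 21.1% of all genes tested called in either direction. SNORD78 inside GAS5 had 43, 39 and 42 reads in the controls and 38, 36 and 26 in ZFP90_KO (log2 fold change -0.35, adjusted p = 0.26). SNORA73B inside SNHG3 had 84, 70 and 67 reads against 96, 81 and 59 (log2 fold change 0.06, adjusted p = 0.85). SNORA9 inside SNHG15 had 10, 10 and 9 reads in the controls and 13, 15 and 11 in ZFP90_KO (adjusted p = 0.436). Reads that fall on a snoRNA row can come from unspliced host RNA, so these rows do not measure the mature snoRNA.

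NEAT1, the paraspeckle scaffold, fell. It measured 2508, 2799 and 3191 CPM in Control replicates 1 to 3 and 1994, 2339 and 2196 CPM in ZFP90_KO. The groups did not overlap. Its mean of 2833 ± 343 CPM in the controls decreased by 23.2% to 2176 ± 173 CPM (SD, n = 3), and the log2 fold change was -0.38 (SE 0.0971, edgeR adjusted p = 0.0251). The call was lost without Control replicate 3 or without ZFP90_KO replicate 1 or 3 (highest adjusted p = 0.104). Gene counts do not separate the short and the long NEAT1 isoform, which share their start.

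MALAT1 lies next to NEAT1 on chromosome 11. It measured 697, 754 and 706 CPM in the controls and 498, 566 and 761 CPM in ZFP90_KO. ZFP90_KO replicates 1 and 2 were below all controls, and replicate 3 was above them. The log2 fold change was -0.24 (95% interval -0.54 to 0.06, adjusted p = 0.235). Without ZFP90_KO replicate 3 it was -0.44 (adjusted p = 0.0126). With all libraries but no filter on low counts, MALAT1 was also called (adjusted p = 0.00189). The call therefore varied both with this library and with the filter.

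LINC00657, now named NORAD, measured 693, 742 and 696 CPM in the controls and 606, 643 and 636 CPM in ZFP90_KO. All ZFP90_KO libraries lay below all controls, by a mean of 11.6% (log2 fold change -0.18, SE 0.0521, adjusted p = 0.0419). This small fall stood close to the threshold: it was lost with DESeq2, with upper quartile scaling and without any 1 library other than Control replicate 2, where the highest adjusted p was 0.152. LINC00641 rose from 80.5, 84.6 and 80.3 CPM to 101, 106 and 95.1 CPM, with groups apart (log2 fold change 0.30, SE 0.0565, adjusted p = 0.00706). LINC00963, on chromosome 9, measured 110, 76.9 and 107 CPM in the controls and 74.3, 75.7 and 79.1 CPM in ZFP90_KO. Only Control replicate 2, which carries the deficit, lay among the ZFP90_KO values. Its log2 fold change was -0.36 (adjusted p = 0.0657) and, without Control replicate 2, -0.51 (adjusted p = 9.6e-07). LINC00969 measured 55.9 ± 0.608 and 53.8 ± 1.38 CPM (SD, n = 3). Its groups did not overlap, but it was not called (adjusted p = 0.492), and the 95% interval of the log2 difference ran from -0.17 to 0.06.

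Of the 82 LINC members, 9 rose and 12 fell, beside 9.73% and 11.4% of all genes tested, and their median log2 fold change was -0.05. Of the 5 LINC members that moved by at least 2-fold, 4 rose and 1 fell, while 3.21% of all genes tested were called at that size. Rises of at least 2-fold were seen for LINC00589, LINC00960, LINC01021 and LINC00106. LINC00589 and LINC00960 reached 120 reads only through the ZFP90_KO libraries, where they are high, so their difference was partly built into their selection. LINC00640 reached it only through the controls and was not called. Without these 3, 12 of 95 members were higher and 13 lower.

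LINC01021, now named PURPL, is known as a transcript induced by the tumour suppressor p53, which HCT116 cells retain. GENCODE 29 places it on chromosome 5 of GRCh38, plus strand, 27472292 to 27496401. It had 48, 45 and 49 reads in the controls and 122, 113 and 104 in ZFP90_KO, or 3.19 ± 0.402 and 7.40 ± 0.604 CPM (SD, n = 3). The groups were apart (log2 fold change 1.22, SE 0.146, adjusted p = 0.000756), and the call held in every alternative tried. Its RefSeq promoter is shown because among called LINC members with a RefSeq entry it alone has a match to the paired core of the p53 response element, taken as C, 2 bases that are each A or T, G, then 6 bases of any kind and the same core again. The pattern reads the same on both strands, and capitals mark the match, which begins 124 bases before the start (chr5:27472042-27472341, plus strand, GRCh38.p14).
LINC01021: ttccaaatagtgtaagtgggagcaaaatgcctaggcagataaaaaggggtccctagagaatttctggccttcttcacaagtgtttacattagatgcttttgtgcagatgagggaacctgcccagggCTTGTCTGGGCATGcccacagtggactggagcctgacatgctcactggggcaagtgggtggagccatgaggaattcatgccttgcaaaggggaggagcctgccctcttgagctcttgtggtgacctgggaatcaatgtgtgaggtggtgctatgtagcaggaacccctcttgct

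The pattern occurs in 2 of the 64 promoter windows of LINC members, the other being LINC00176, and in 4.79% of all RefSeq promoter windows of 300 bases. LINC00176 had a log2 fold change of -0.02 (adjusted p = 0.934). A match describes letters and not a bound site.

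LINC00589 had 8, 4 and 3 reads in the controls and 56, 27 and 44 in ZFP90_KO, or 0.327 ± 0.146 and 2.73 ± 0.746 CPM (SD, n = 3). The edgeR log2 fold change was 3.01 (SE 0.365, adjusted p = 0.000793). It lies on chromosome 8, and its log2 fold change without Control replicate 2 was 2.87 (adjusted p = 3.07e-05). LINC00960 had 14, 17 and 9 reads in the controls and 44, 38 and 43 in ZFP90_KO. That is 0.885 ± 0.224 against 2.72 ± 0.0815 CPM, with all ZFP90_KO libraries above the controls (log2 fold change 1.60, adjusted p = 0.00168). LINC00960 overlaps the protein-coding gene ZNF717, and the strand setting of the counting is not given, so its reads may not all be its own. LINC00106 had 32, 20 and 36 reads against 59, 65 and 85. It lies at the tip of chromosome X, where Control replicate 2 was low, and its log2 fold change went from 1.21 to 0.98 without that library (adjusted p = 0.0138 and 0.00421). LINC01133 had 32, 20 and 36 reads in the controls and 68, 61 and 52 in ZFP90_KO (log2 fold change 1.00, adjusted p = 0.0205). Its call was lost without Control replicate 1 or without ZFP90_KO replicate 1 or 2 (highest adjusted p = 0.0797). That of LINC00106 was lost without ZFP90_KO replicate 3 (adjusted p = 0.0609).

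The other higher LINC members moved less. LINC00926 had 3.07 ± 0.119 CPM in the controls and 4.83 ± 0.191 CPM in ZFP90_KO (SD, n = 3), a log2 fold change of 0.65. LINC01128 went from 22.3 ± 1.24 to 29.5 ± 1.75 CPM (0.40) and LINC00662 from 40.4 ± 0.688 to 52.8 ± 3.50 CPM (0.39). In each of them the lowest ZFP90_KO library exceeded the highest control, and these calls held with each library left out.

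**Figure D3:**
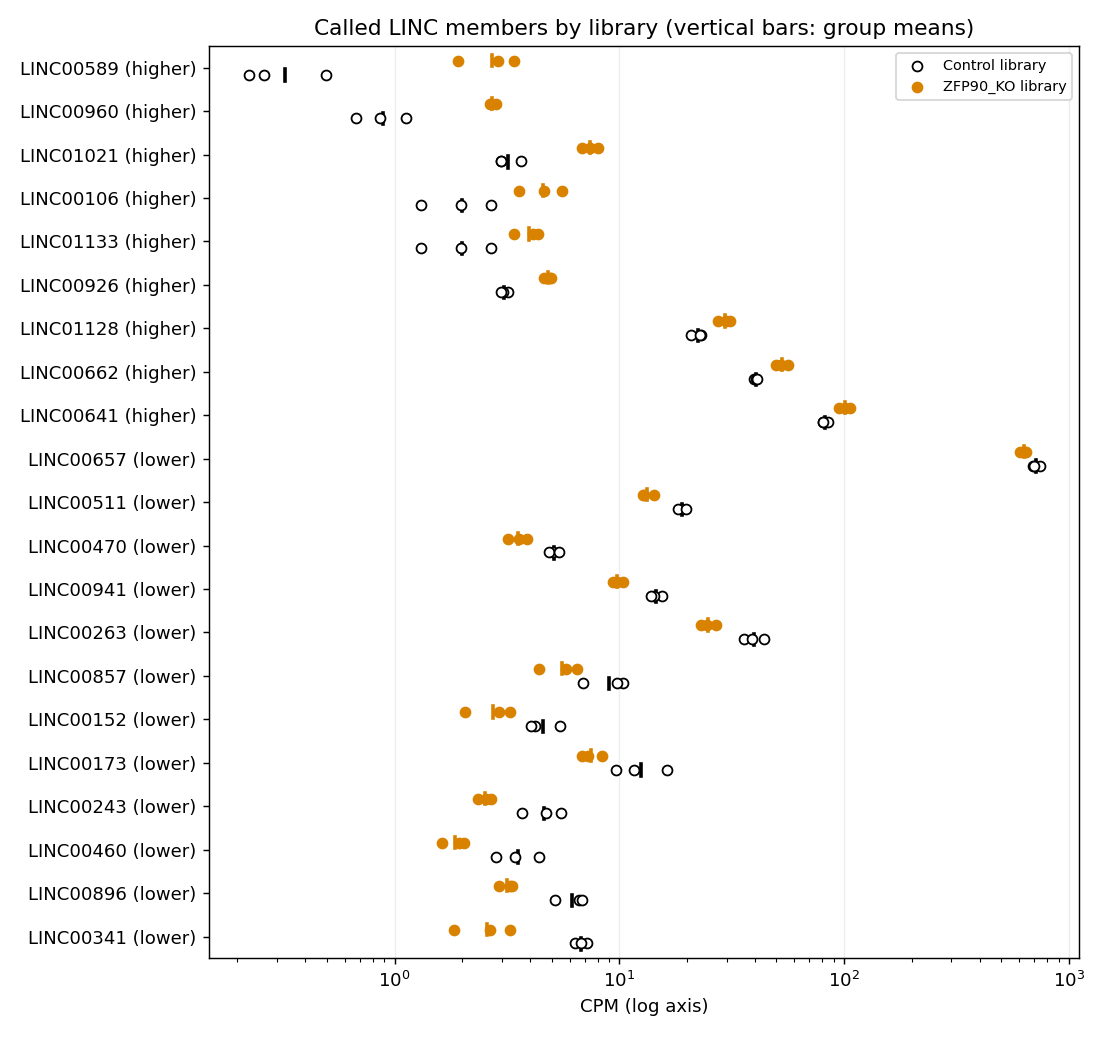
CPM on a log axis of the 21 called LINC members in each library (open circles, Control; filled orange circles, ZFP90_KO; short vertical bars, group means), ordered by log2 fold change. In each gene the circles of the groups do not overlap, and most of these genes lie below 20 CPM, with LINC00657 far above the rest.

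The LINC member with the largest fall was LINC00341. It had 116, 96 and 90 reads in the controls and 44, 46 and 28 in ZFP90_KO, or 6.73 ± 0.421 and 2.58 ± 0.718 CPM (SD, n = 3). The edgeR log2 fold change was -1.39 (SE 0.193, adjusted p = 0.00165). Current annotation merges LINC00341 into SYNE3, which encodes nesprin-3 of the nuclear envelope, and SYNE3 had its own row in the count tables with a log2 fold change of -1.30 (adjusted p = 0.00176). Both rows of this locus therefore fell by similar amounts. LINC00896 on chromosome 22 went from 84, 100 and 91 reads to 48, 46 and 51 (log2 fold change -0.96, adjusted p = 0.00397). LINC00263, now OLMALINC, is a better-sampled example on chromosome 10. It measured 36.0, 38.8 and 43.8 CPM in the controls and 26.9, 24.5 and 23.1 CPM in ZFP90_KO, with all ZFP90_KO libraries below all controls (log2 fold change -0.67, SE 0.0933, adjusted p = 0.0017). LINC00511 fell from 19.0 ± 0.817 to 13.3 ± 0.786 CPM and LINC00941 from 14.5 ± 0.843 to 9.80 ± 0.492 CPM (log2 fold changes -0.51 and -0.56). These 5 falls held in every alternative tried, an adjusted p under 0.01 included.

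The remaining 6 LINC falls lost their call when at least 1 of the libraries, left out in turn, was missing. LINC00460, a transcript of chromosome 13, had 71, 43 and 46 reads against 32, 23 and 31 (log2 fold change -0.93, adjusted p = 0.0173). Its call was lost without Control replicate 1 or any 1 ZFP90_KO library (highest adjusted p = 0.0617). LINC00243 on chromosome 6 went from 4.63 ± 0.906 to 2.53 ± 0.170 CPM (log2 fold change -0.87, and -1.02 without Control replicate 2), and was lost without ZFP90_KO replicate 1 (adjusted p = 0.0607). LINC00173 measured 11.7, 16.3 and 9.63 CPM in the controls and 7.25, 8.37 and 6.81 CPM in ZFP90_KO. Control replicate 2 stood highest, and the log2 fold change was -0.75 with it and -0.52 without it (adjusted p = 0.0247 and 0.00812). This call was lost without ZFP90_KO replicate 1 or 3 (highest adjusted p = 0.0976).

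LINC00857 (log2 fold change -0.71) was lost without Control replicate 1 or any 1 ZFP90_KO library (highest adjusted p = 0.123). LINC00470 (-0.52) was lost without any 1 library other than Control replicate 2 and ZFP90_KO replicate 2 (0.107), and with DESeq2 and the replicate block. LINC00152, now CYTOR, had 68, 83 and 54 reads against 48, 29 and 50 (-0.73), and was lost without any 1 of the 6 libraries (adjusted p from 0.0519 to 0.104).

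Of the 27 called members, 16 kept their call with each library left out in turn, 11 higher and 5 lower, and 0 reversed. The 11 include LINC00589 and LINC00960, whose difference was partly built into their selection.

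**Figure D4:**
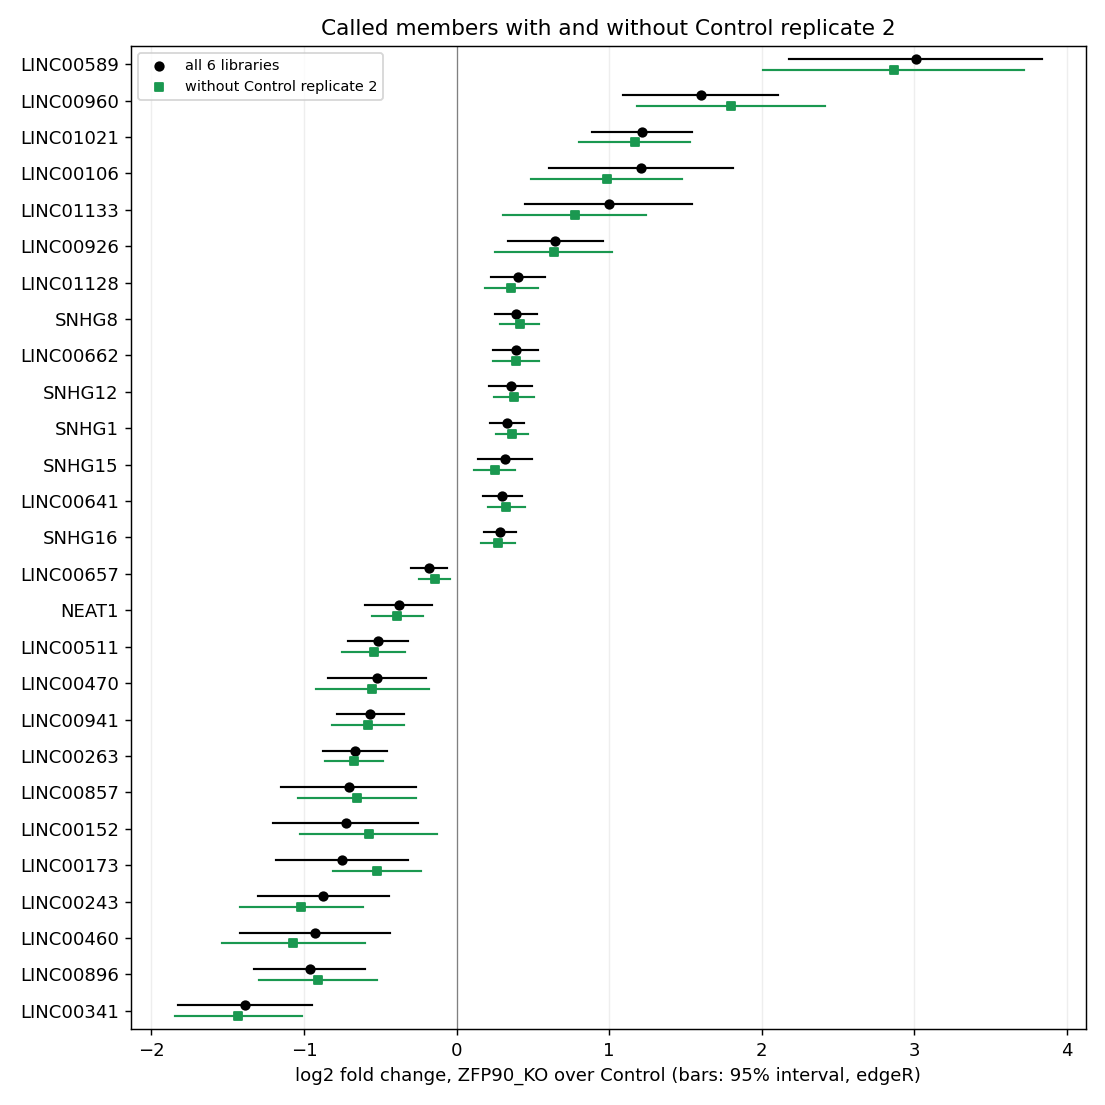
Log2 fold change of ZFP90_KO over Control with its 95% interval (edgeR) for the 27 called members, from all 6 libraries (black circles) and without Control replicate 2 (green squares). Each member keeps its side of 0, and LINC00106, LINC01133 and LINC00173 are among those that move toward 0.

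The 71 members that were not called had log2 fold changes between -0.76 (LINC00640) and 0.71 (LINC00894). LINC00894 on chromosome X measured 9.75, 3.75 and 9.41 CPM in the controls and 12.2, 12.7 and 12.6 CPM in ZFP90_KO. Control replicate 2 stood far below, and the adjusted p was 0.101 with it and 0.0177 without it, at log2 fold changes of 0.71 and 0.38. Of the 18 members on chromosomes 6 to 9 and X, 3 were higher and 1 lower. Of the 75 assigned to the chromosomes without the deficit, 11 were higher and 11 lower. The gene annotation used gave no chromosome for 5 members by symbol, of which LINC00941 was lower. RefSeq promoters place LINC00941 and LINC00938 on chromosome 12 and LINC00669 on chromosome 18, which do not carry the deficit. The 75 leave these members out. Over all chromosomes, 9.73% of all genes tested were called higher and 11.4% lower. Shares of all genes on these sets of chromosomes were not computed, so the split cannot be read as particular to the members. LINC00341 and LINC01059 have the chromosome of the gene they were merged into but no position of their own, which leaves 91 placed members.

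Of all 98 members, GENCODE 29 lists 51 as lincRNA (long intergenic), 15 as processed transcripts and 9 as antisense. Of the 82 LINC members, 27 now carry another symbol. GENCODE 29 counts 8 of these 82 as protein-coding genes with no separate row under the newer name, among them LINC00998 (SMIM30), LINC00493 (SMIM26) and LINC00116 (MTLN), which encode small membrane proteins. Of the 8, 0 were called by edgeR, DESeq2 or limma-voom, and 1 had an unadjusted p under 0.05, beside the 21.1% of all genes tested that were called and the 35.0% at an unadjusted p under 0.05. LINC00998 on chromosome 7 measured 36.6 ± 4.22 and 37.8 ± 1.36 CPM (SD, n = 3), with a log2 fold change of 0.05, and of -0.04 without Control replicate 2 (adjusted p = 0.754 and 0.707). LINC00493 measured 34.1 ± 3.11 and 29.4 ± 1.82 CPM (adjusted p = 0.112). LINC00094 (BRD3OS) on chromosome 9 measured 15.3, 9.41 and 16.0 CPM in the controls and 13.6, 12.5 and 14.7 CPM in ZFP90_KO. Control replicate 2 stood lowest. The log2 fold change was 0.01 (adjusted p = 0.983) with that library and -0.20 (adjusted p = 0.182) without it, so the near-equal group means rest on it.

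Neighbouring genes were placed with GENCODE 29, in which 22 members overlap a protein-coding gene. Within 100 kb, 18 called members had a nearest tested protein-coding gene, and of these neighbours 6 were called in the member's direction, 0 in the other and 12 not at all. Of the 59 neighbours of members that were not called, 11 were called, and 21.1% of all genes tested were. With no limit on distance, 25 called members had a placed neighbour, of which 7 were called in the member's direction, 2 in the other and 16 not at all. The opposed pairs were LINC00460 with EFNB2, 105416 bases away, and LINC00152 with KRCC1, 390465 bases away, where the neighbours rose by 0.28 and 0.33 in log2 (adjusted p = 0.00435 and 0.0429). Each share rests on few genes, the strand setting of the counting is not given, and reads of genes that lie side by side or overlap can be exchanged.

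The SLC25A6 gene, which encodes a mitochondrial ADP/ATP carrier, starts 3703 bases from LINC00106 in the opposite orientation. Its level was 239.7 ± 71.6 CPM in the controls and 502 ± 8.80 CPM in ZFP90_KO (SD, n = 3), a rise of 1.07 in log2, and of 0.84 without Control replicate 2. LINC01133 starts 15614 bases from the immunoglobulin-superfamily gene IGSF9, which rose by 0.89 (adjusted p = 0.0173), a call lost without Control replicate 1 or ZFP90_KO replicate 1 or 3 (highest adjusted p = 0.0731). LINC00857 starts 2138 bases from the annexin gene ANXA11 in the opposite direction. ANXA11 fell from 151 ± 4.05 to 113 ± 5.99 CPM (log2 fold change -0.42, adjusted p = 0.00116).

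SNHG16 ends 31 bases from the end of ST6GALNAC2, a sialyltransferase gene on the other strand, whose level of 12.3 ± 0.474 CPM in the controls rose to 29.9 ± 4.05 CPM in ZFP90_KO (SD, n = 3), by 1.28 in log2. LINC01128 lies 64482 bases from SAMD11, which rose by 1.77 (adjusted p = 2.57e-05). EPB41L1, 40544 bases from LINC00657, fell by 0.19 on the log2 scale (adjusted p = 0.0374), and that call was lost with DESeq2, with no filter on low counts, with the replicate block and without any 1 library other than Control replicate 2 (highest adjusted p = 0.126). The nearest neighbours were not always called: SLC3A2, which starts 188 bases from SNHG1 on the opposite strand and encodes the heavy chain of amino acid transporters, had a log2 fold change of -0.13 (adjusted p = 0.148). SCD, 8679 bases from LINC00263, had -0.00 (adjusted p = 0.978).

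**Figure D5:**
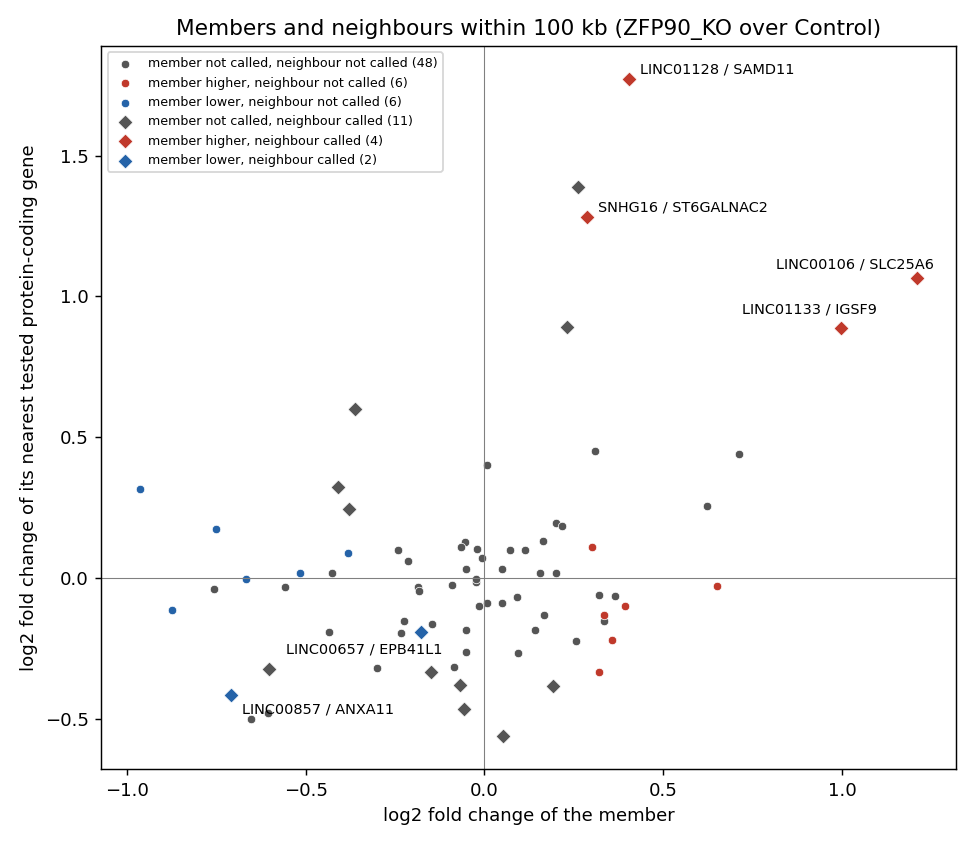
Log2 fold change of a member (horizontal axis) against that of its nearest tested protein-coding gene within 100 kb (vertical axis), for 77 members; colours give the member's call and diamonds mark neighbours that were called. The 6 labelled pairs, called in both genes, lie at the upper right and lower left.

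The next counts, for lists of genes that act on these RNAs, stand beside 9.73% of all genes tested called higher and 11.4% called lower. In the band of 1000 or more reads, 1251 of 9929 genes tested were called higher and 1269 lower. Counts without Control replicate 2, here and in the next paragraph, stand beside 13.5% of 16693 genes tested called higher and 14.1% called lower. Of 18 core and assembly proteins of snoRNA particles, 4 rose and 0 fell, with a median log2 fold change of 0.13. NOP56 and NOP58, which are part of the box C/D particle, rose by 0.27 and 0.22, and the assembly factors RUVBL2 and PIH1D1 by 0.26 and 0.21. FBL and NHP2L1 of the same list were not called (0.08 and 0.09, edgeR adjusted p = 0.327 and 0.191). When libraries were scaled by size alone, all 4 called genes lost their call, as they did without ZFP90_KO replicate 1. The list's count was 1 without Control replicate 1, 2 without Control replicate 3 or ZFP90_KO replicate 3, and 6 without Control replicate 2. Of 33 protein-coding snoRNA hosts, 3 rose and 0 fell (median 0.07): RPL13A by 0.26, NOP56 by 0.27 and nucleolin (NCL) by 0.24. These 3 calls too were lost with scaling by library size alone, and the count was 1 without Control replicate 1 or ZFP90_KO replicate 1, 2 without ZFP90_KO replicate 3 and 7 without Control replicate 2. The 5 SNHG calls held under that scaling.

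Of 18 factors of nonsense-mediated decay, the exon junction protein RBM8A rose by 0.30 (adjusted p = 0.00412) and SMG9 fell by 0.34 on the log2 scale (adjusted p = 0.0152). SMG9 was lost without ZFP90_KO replicate 1 or 3, and without Control replicate 2 the counts were 3 higher and 1 lower. Of 22 paraspeckle proteins 5 rose and 1 fell, with DAZAP1 higher by 0.42 (adjusted p = 0.000557) and ZC3H6 lower, at -0.50 (adjusted p = 0.00368). The core paraspeckle protein PSPC1 was among the 5. NONO, SFPQ and HNRNPK of the same list were not called (0.53, 0.05 and -0.07, edgeR adjusted p = 0.098, 0.702 and 0.69). Without Control replicate 2 their adjusted p were 0.00037, 0.109 and 0.00486. Over the libraries left out in turn, 3 to 9 of this list were higher and 1 to 2 lower. Of 19 nuclear speckle proteins, SRSF3 rose by 0.22 (adjusted p = 0.0386). That call was lost with scaling by library size alone, with the replicate block and without Control replicate 3 or any 1 ZFP90_KO library, and without Control replicate 2 the counts were 6 higher and 1 lower. Of 20 exosome genes, DIS3 rose by 0.22, while EXOSC5 and PAPD5 had -0.36 and -0.24 and fell. DIS3 was lost with scaling by library size alone, EXOSC5 without ZFP90_KO replicate 3, and PAPD5 without Control replicate 1 or 3 or ZFP90_KO replicate 1 or 3. Without Control replicate 2, 4 exosome genes were higher and 2 lower. The median log2 fold changes of these 4 lists lay between 0.02 and 0.07, beside 0.01 over all genes tested.

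At the edge of the read threshold, LINC00304, LINC00992 and LINC00669 were just inside with 136, 141 and 141 reads, and LINC01155, LINC00869 and LINC00852 just outside with 116, 113 and 110. LINC00869 had 27, 26 and 17 reads in the controls and 16, 14 and 13 in ZFP90_KO.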

How the data were processed

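Per the submitters' processing notes, the authors used TopHat2 2.0.11 and HTSeq on builds hg19 and GRCh37; the sources used here name neither strand setting nor annotation release. Each library's deposited table lists unnormalized read counts by gene symbol, with summary lines (31.7% to 32.4% of listed reads) kept out of library sizes and tests. A count of 3 corresponds to 0.176 to 0.223 CPM, a floor for counting error alone. Tests used edgeR 4.0.16 (R 4.3.3; quasi-likelihood, TMM, filterByExpr with a minimum count of 10 and total of 15), with Benjamini-Hochberg adjustment over 16369 genes and a threshold of 0.05, and checked on simulated data. Alternatives used DESeq2 1.42.0, limma 3.58.1, other scalings, filters and left-out libraries.

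Members and lists were chosen with earlier results of these data known. Named genes were MALAT1, NEAT1, GAS5, every SNHG member, every called LINC member (if over 20, the 10 highest and 10 lowest log2 fold changes), the 5 LINC members with most reads, members at the read threshold, the 2 most changed called genes of each list, and neighbours. Because 21 LINC members were called, LINC00511 falls outside this rule; it and others (LINC00998, LINC00493, LINC00116, LINC00094, LINC00894, LINC00640, LINC00176, SYNE3, NOP58, PIH1D1, NCL, PSPC1, DIS3, SLC3A2, ST6GALNAC2, EFNB2, KRCC1, KRT18 and LINC01059) were chosen after their values were seen. Positions come from GENCODE 29 on GRCh38, another build than the counts, and place 91 members by symbol, 15 of these by an older one. RefSeq promoters matched 69 members. No pair of replicates agreed within sampling noise (chi-square per degree of freedom 2.2 to 19.8).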

Additional observations from a re-analysis of the deposited data

How the results depend on the processing

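Member counts kept within 1.5 times of 14 higher in each alternative tried, from 10 at an adjusted p under 0.01 to 17 with no filter on low counts or without Control replicate 2. The 13 lower members became 5 at an adjusted p under 0.01 and 5 to 17 with 1 library left out: 8 without Control replicate 1, 9 without Control replicate 3, 5, 9 and 7 without ZFP90_KO replicates 1 to 3, and 17 without Control replicate 2. The 12 lower LINC members became 5 at an adjusted p under 0.01 and 5 to 15 with 1 library left out, and 18 with scaling by library size alone. Lower snoRNA hosts numbered 0 to 1 with 1 library left out. Over all genes, 1593 higher and 1861 lower became 618 and 869 at an adjusted p under 0.01, 986 and 2343 with library size alone, and 756 to 2261 and 1025 to 2361 with 1 library left out. Membership from 60 reads gave 15 and 15 called, and from 240 reads 12 and 13. Over 39 named members, 54 alternative results fell below the threshold, 11 rose above it and 0 reversed. Of 27 calls, 15 held throughout. Those of LINC00589 and LINC00960 are among them, but their difference was partly built into their selection. With the replicate number as a block, 15 members were higher and 12 lower. Same-numbered libraries did not all correlate above 0.1 (0.05, 0.14 and 0.09), though each library correlated best with its own number; the block removed the calls of LINC00857, LINC00470 and LINC00152. The chromosome restriction dropped members on 6 to 9 and X and unplaced members and called 12 higher and 16 lower. Where a call changed, the cause was not tested. The scarce members limit detection, as their median SE was 0.19 against 0.086 for members with 1000 or more reads.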
